A study of Mus musculus with 18 samples.

Results

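The genes described here are 6 epithelial identity genes: the claudins *Cldn6* and *Cldn7*, the adhesion molecule gene *Epcam*, the keratins *Krt8* and *Krt18*, and the splicing regulator gene *Esrp1*. They were taken by name from 22997 nuclear genes, and all 6 were in every table. Their transcripts were counted in single cells of wild-type C57BL/6 mouse embryos, in a study whose title concerns when mesoderm and endoderm part from each other during gastrulation. At embryonic day 6.75 (E6.75), embryos were dissociated one at a time after the extraembryonic part had been removed, and cells were picked by hand into 6 libraries. At E7.5 the cut was made under the chorion, so that extraembryonic mesoderm stayed in, embryos of 1 or 2 litters were pooled, and cells were flow-sorted into 12 libraries. The labels name CEL-Seq2 and its modified form mCEL-Seq2 without saying which libraries used which; both count transcripts by unique molecular identifiers at the 3′ end. Each library held 96 cells, all embryos were labelled wild type, and the labels give no treatment. Stage, trimming and way of picking cells changed together and cannot be told apart.

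Epithelial cells are held together by tight junctions, adherens junctions and desmosomes, and their keratin filaments attach to the desmosomes. Claudins are the membrane proteins that form the strands of tight junctions, EpCAM is a cell surface adhesion molecule of epithelia, and keratin 8 (type II) and keratin 18 (type I) pair with each other into the filaments of simple epithelia. ESRP1 is an RNA-binding protein that directs the epithelial pattern of alternative splicing. In the gastrulating mouse embryo the epiblast is an epithelium, cells that enter the primitive streak leave it to form mesoderm and definitive endoderm, and the visceral endoderm is a second epithelium on the outside. *Mesp1* is expressed in nascent mesoderm, *Foxa2* in endoderm, axial mesoderm and the anterior streak, and *Sox2* in epiblast and neural ectoderm.

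Cells were therefore sorted into classes by these 3 genes, none of which is a member. A cell entered the Mesp1 gate with at least 1 *Mesp1* transcript and no *Foxa2*, the Foxa2 gate with at least 1 *Foxa2* transcript and no *Mesp1*, and the Sox2 gate with *Sox2* but neither of the other two; *Sox2* itself was not asked of the first 2 gates. Visceral endoderm was set apart first, as cells with at least 20 transcripts of *Ttr*, *Apoa1* and *Spink1* per 10000. Of 576 cells at E6.75, 543 held at least 2000 nuclear transcripts and were kept: 39 were visceral endoderm, 270 fell in the Sox2 gate, 29 in the Mesp1 gate, 82 in the Foxa2 gate, 21 held both *Mesp1* and *Foxa2*, and 102 held none of the 3. Of 1152 cells at E7.5, 429 were kept: 2 were visceral endoderm, 129 fell in the Sox2 gate, 125 in the Mesp1 gate, 48 in the Foxa2 gate, 12 held both lineage genes, and 113 held none. The E6.75 Mesp1 gate had at least 3 cells only in replicates 2_9 (3 cells), 2_13 (15 cells) and 2_14 (11 cells). A gate needs only 1 transcript and so depends on depth: the E6.75 cells with none of the 3 genes had a median of 7973 transcripts, against 47206.5 in the Sox2 gate.

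Libraries differed in depth, with 2929769 to 5486857 nuclear transcripts in the 6 early ones and 517752 to 2624060 in the 11 E7.5 libraries that kept cells; E7.5 replicate 5, with 3041 transcripts, kept none. Libraries reused a set of cell barcodes: of 153 library pairs, 56 shared all 96 barcodes, 32 shared 48 and 65 shared none. Replicate 12 of E7.5 stood apart, with the highest level in 8 of 16 class levels of *Cldn6*, *Cldn7*, *Epcam* and *Esrp1*, and the calls that it alone decides are named. The labels do not say whether libraries of a stage shared an embryo or a litter, so the p-values measure the spread between libraries. Levels are transcripts per 1000000 nuclear transcripts (CPM) in the summed cells of a class in a library, for classes of at least 3 cells, given as mean ± SD over libraries. Differences are log2 fold changes from edgeR's quasi-likelihood test on those sums, with p-values adjusted over all genes tested by the Benjamini-Hochberg method and a threshold of 0.05. How many of all genes had ranges that did not overlap, or the same direction in every library, was not counted. Statements of overlap and of libraries higher or lower therefore describe the members' values and are not tests.

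The members lie at 5 places in the mouse genome (GRCm38, GENCODE vM21). *Cldn6* is at chr17:23679249-23682446 and *Epcam* at chr17:87635979-87651129, both on the plus strand. *Cldn7* is at chr11:69964779-69967885 on the plus strand, and *Esrp1* at chr4:11331933-11386783 on the minus strand. *Krt8* (chr15:101996698-102004482, minus strand) and *Krt18* (chr15:102028180-102032027, plus strand) are neighbours, 23.697 kb apart with 0 annotated genes between them, and point away from each other. *Krt8* overlaps the lincRNA gene *Gm36026* and *Esrp1* the lincRNA gene *Gm26663*, each on the opposite strand, and since the strand setting of the counting is not given in the sources used here, reads of the partners cannot be told apart. *Krt8* also has 1 named pseudogene. *Cldn6* lies 0.137 kb from another claudin gene, *Cldn9*, and the annotation behind the counts is not given either.

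The bases upstream of the first exon are shown for *Cldn7* and *Epcam*, the pair of members whose levels were most alike, and for the neighbours *Krt8* and *Krt18* (RefSeq, GRCm38.p6, cut at the first annotated exon base, 5′ to 3′ on the gene's strand, with motif matches in capitals):
Cldn7: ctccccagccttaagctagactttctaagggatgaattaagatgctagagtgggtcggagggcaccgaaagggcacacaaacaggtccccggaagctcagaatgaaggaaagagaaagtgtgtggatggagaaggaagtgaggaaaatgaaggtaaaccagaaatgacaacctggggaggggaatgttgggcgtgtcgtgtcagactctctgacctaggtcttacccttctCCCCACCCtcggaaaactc
Epcam: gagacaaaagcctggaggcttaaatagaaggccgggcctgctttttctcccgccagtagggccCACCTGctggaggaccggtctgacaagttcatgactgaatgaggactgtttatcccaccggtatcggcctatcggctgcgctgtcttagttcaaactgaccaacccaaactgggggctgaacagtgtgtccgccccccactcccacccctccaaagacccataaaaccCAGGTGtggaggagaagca
Krt8: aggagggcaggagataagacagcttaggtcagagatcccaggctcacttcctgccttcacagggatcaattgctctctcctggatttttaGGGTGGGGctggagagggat
Krt18: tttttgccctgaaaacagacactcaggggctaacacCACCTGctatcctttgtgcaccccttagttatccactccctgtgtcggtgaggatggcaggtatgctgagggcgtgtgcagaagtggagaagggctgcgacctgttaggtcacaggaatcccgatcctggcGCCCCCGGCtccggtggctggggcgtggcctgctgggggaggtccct

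These are 250 bases for *Cldn7* (chr11:69964529-69964778, plus strand) and *Epcam* (chr17:87635729-87635978, plus strand), 110 bases for *Krt8* (chr15:102004483-102004592, minus strand) and 214 bases for *Krt18* (chr15:102027966-102028179, plus strand). Both strands were searched for the E-box bound by SNAI and ZEB repressors (CACCTG), a GRHL core site (AACCGG) and full site (AACCGGTT, which contains the core), an AP-2 site (GCCNNNGGC), a KLF site (CCCCACCC), a TATA box (TATAAA) and a FOX site (TGTTTAC). *Epcam* held the E-box at 2 places, starting 187 and 19 bases before its first exon. Of 32851 RefSeq promoter windows of the same length, 17.2% held it at least at 1 place, and the share with 2 was not counted. *Krt18* held 1 E-box (15.2% of windows of its length) and 1 AP-2 site (11.5%). *Cldn7* and *Krt8* each held 1 KLF site (9.05% and 3.03% of windows of their lengths). The 134 bases of *Cldn6* (chr17:23679115-23679248, plus strand) held none of these letters. A match describes the letters of the window and is not a measured site.

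The first comparison asked how the members stood in cells with *Mesp1* against cells with *Sox2* alone. At E7.5, *Cldn6*, *Cldn7*, *Epcam* and *Esrp1* were all lower in the Mesp1 gate, by 5.26-fold, 5.70-fold, 3.85-fold and 4.05-fold, and each was lower in 10 of 10 libraries. Among all 5380 genes tested there, 5.45% were called lower and 4.2% higher, and the keratins did not pass the test. At E6.75, with 3 libraries, the claudins alone passed: *Cldn6* was 2.19-fold and *Cldn7* 1.98-fold lower, where 0.298% of 8399 genes were called lower and 0.857% higher. The 2 stages' comparisons do not share cells, but all comparisons within a stage share the cells of their gates.

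*Cldn6* in the E7.5 Sox2 gate ran from 124 to 426 CPM with a median of 184 (216 ± 94, n = 10 libraries), and in the Mesp1 gate from 8.15 to 105 with a median of 40.3 (47.6 ± 27.7, n = 11). The ranges did not overlap. Its log2 fold change was -2.39 (SE 0.18, edgeR adjusted p = 3.00e-10). *Cldn7* ran from 42.3 to 136 CPM with a median of 78.1 in the Sox2 gate and from 0 to 34.6 with a median of 10.1 in the Mesp1 gate, again with no overlap (log2 fold change -2.51, SE 0.30, edgeR adjusted p = 7.80e-07). *Epcam* ran from 67.6 to 280 CPM with a median of 121 in the Sox2 gate and from 15.0 to 63.4 with a median of 33.1 in the Mesp1 gate. Those ranges, too, did not overlap (log2 fold change -1.95, SE 0.18, edgeR adjusted p = 7.81e-09). *Esrp1* ran from 27.3 to 86.0 CPM with a median of 53.7 in the Sox2 gate and from 0 to 38.4 with a median of 11.02 in the Mesp1 gate, so that the ranges overlapped although each library was lower in its own Mesp1 cells (log2 fold change -2.02, SE 0.27, edgeR adjusted p = 5.78e-06). These 4 calls held without each library in turn and in every alternative in which the gene could be tested.

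Both keratins were spread widely in the E7.5 Mesp1 gate. *Krt8* there ran from 15.0 to 132 CPM with a median of 45.7, against 20.4 to 86.8 with a median of 37.2 in the Sox2 gate, and was higher in 6 of 10 libraries (log2 fold change 0.40, SE 0.22, edgeR adjusted p = 0.33). *Krt18* ran from 12.5 to 96.2 CPM with a median of 33.7, against 31.8 to 232 with a median of 87.8, and was lower in 8 of 10 libraries (log2 fold change -0.59, SE 0.29, edgeR adjusted p = 0.249). With at least 2 transcripts of the gate gene asked of a cell, *Krt8* was called higher (0.71, edgeR adjusted p = 0.034), and without a filter on low counts *Krt18* was called lower (-0.55, edgeR adjusted p = 0.0383). The highest *Krt8* in that gate, 132 CPM, was in replicate 1. A cell with *Hand1* could also enter the Mesp1 gate, and the keratins in *Hand1* cells are given with the other cells that lacked *Foxa2* and *Sox2*.

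At E6.75 the 3 libraries with a Mesp1 gate gave *Cldn6* at 146 CPM in replicate 2_13, 69.4 in 2_14 and 131 in 2_9, against 241, 233 and 280 in the Sox2 gate of the same libraries. All 3 Mesp1 values lay below all Sox2 values (log2 fold change -1.13, SE 0.18, edgeR adjusted p = 0.0101). *Cldn7* was at 59.0, 41.3 and 79.5 CPM in the same order, against 109, 111 and 116 (log2 fold change -0.98, SE 0.19, edgeR adjusted p = 0.0308). The gates did not overlap for *Cldn7* either, but its call was lost with DESeq2 and without replicate 2_13 or 2_14, and that of *Cldn6* was lost without replicate 2_14 (log2 fold change -0.87, edgeR adjusted p = 0.0904; smallest and largest over its 11 alternatives 3.84e-23 and 0.0904). The largest adjusted p of *Cldn7* over its 11 alternatives was 0.409, without replicate 2_14.

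The other 4 members did not pass at E6.75. *Epcam* was at 135 CPM in replicate 2_13, 82.7 in 2_14 and 191.8 in 2_9, against 186, 183 and 190 in the Sox2 gate, so that it was lower in 2 libraries and level in the one with 3 Mesp1 cells (log2 fold change -0.55, SE 0.19, edgeR adjusted p = 0.283). *Krt18* was at 47.9, 28.1 and 51.5 CPM in the same order, against 72.7, 94.2 and 77.0, lower in all 3 (log2 fold change -0.98, SE 0.24, edgeR adjusted p = 0.0994). *Esrp1* was at 47.9, 44.6 and 88.9 CPM, against 70.6, 60.2 and 55.8 (log2 fold change -0.21, SE 0.24, edgeR adjusted p = 0.862). *Krt8* was at 27.0, 18.2 and 18.7 CPM, against 26.5, 31.7 and 14.1 (log2 fold change -0.22, SE 0.32, edgeR adjusted p = 0.893). With a gate of at least 2 transcripts, which left 2 libraries, *Cldn6*, *Cldn7*, *Epcam* and *Krt18* were all called lower, and without replicate 2_9 *Epcam* (-0.74) and *Krt18* (-1.07) were called as well.

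Whether the Mesp1 difference itself changed between stages was tested as an interaction over 13 libraries. It grew more negative for *Cldn6* (log2 difference -1.24, SE 0.30, edgeR adjusted p = 0.0405), *Epcam* (-1.38, SE 0.28, edgeR adjusted p = 0.00863) and *Esrp1* (-1.81, SE 0.41, edgeR adjusted p = 0.0215). For *Cldn7* the log2 difference was -1.51 (SE 0.43, edgeR adjusted p = 0.126), and for the keratins it was 0.65 (*Krt8*, SE 0.45) and 0.43 (*Krt18*, SE 0.50), with edgeR adjusted p of 0.909 and 0.969. Of 7662 genes tested, 0.535% were called lower and 0.104% higher. None of the 3 calls was made with DESeq2 or without E6.75 replicate 2_13 or 2_9, that of *Cldn6* was also lost without any of E7.5 replicates 1, 2, 4, 6, 7 and 12, and that of *Esrp1* without E6.75 replicate 2_14 or E7.5 replicate 2. A gate of 2 transcripts ended the calls of *Cldn6* (-0.98, edgeR adjusted p = 0.668) and *Epcam* (-0.84, edgeR adjusted p = 0.709), and leaving out extraembryonic ectoderm cells ended that of *Cldn6* (-1.14, edgeR adjusted p = 0.107). *Cldn7* was called without E7.5 replicate 6 or 10 and without a filter on low counts (-1.41). With *Sox2* also required to be absent from the Mesp1 gate, 1 E6.75 library and 9 E7.5 libraries were left, against 3 and 10 here. The change could thus not be tested in Mesp1 cells lacking *Sox2*. What part cells with both genes had in it was not tested.

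**Figure D1:**
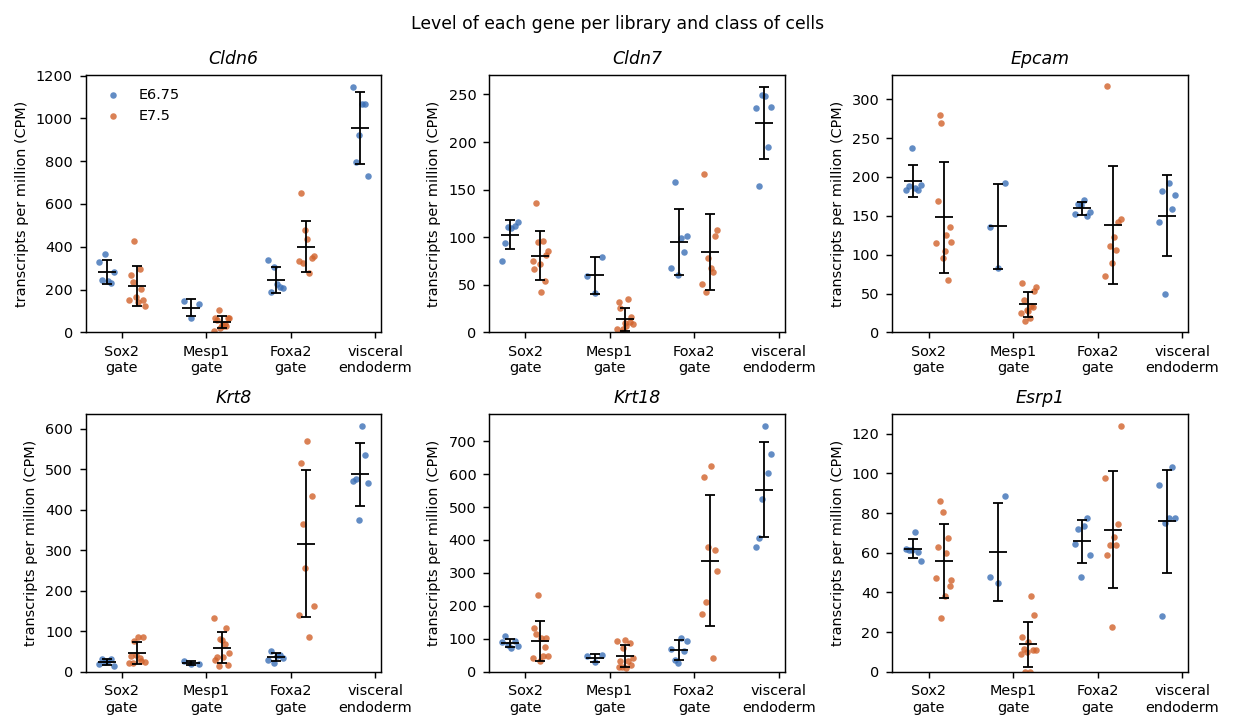
Level of each member in CPM (vertical axes, linear and from 0, with a separate scale per gene) in the Sox2, Mesp1 and Foxa2 gates and in visceral endoderm. Each point is the summed cells of 1 library (blue E6.75, orange E7.5), and bars show mean ± SD. The orange Mesp1 points of Cldn6, Cldn7 and Epcam lie below all orange Sox2 points, and the keratins are highest in the orange Foxa2 points and in visceral endoderm.

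The next comparison set cells with *Foxa2* against cells with *Sox2* alone. At E7.5, *Krt8*, *Krt18* and *Cldn6* were higher in the Foxa2 gate, by 6.78-fold, 4.59-fold and 2.14-fold, while *Cldn7*, *Epcam* and *Esrp1* did not pass the test. Of 4011 genes tested, 1.52% were called higher and 0.997% lower. At E6.75 no member passed. The rise at E7.5 moved with traces of visceral endoderm transcripts: 17 of the 48 Foxa2-gate cells (35.4%) held at least 1 transcript of *Ttr*, *Apoa1* or *Spink1*, against 16 of 129 in the Sox2 gate (12.4%), and without those cells no member was called.

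*Krt8* in the E7.5 Foxa2 gate ran from 84.9 to 571 CPM with a median of 311 (316 ± 182, n = 8), against 45.6 ± 26.6 (n = 10) in the Sox2 gate, and was higher in 8 of 8 libraries. Its ranges touched only at the low end, where Foxa2 replicate 6 (84.9 CPM) lay below the highest Sox2 value of 86.8 CPM. The log2 fold change was 2.76 (SE 0.20, edgeR adjusted p = 1.27e-10). *Krt18* ran from 42.5 to 626 CPM with a median of 338 (337 ± 200, n = 8), against 92.4 ± 60.2 (n = 10), and was higher in 7 of 8 libraries, the exception being replicate 6 (log2 fold change 2.20, SE 0.22, edgeR adjusted p = 9.15e-08). *Cldn6* ran from 276 to 649 CPM with a median of 352 (400 ± 120, n = 8) and was higher in 8 of 8 libraries (log2 fold change 1.10, SE 0.14, edgeR adjusted p = 6.90e-06). Its ranges overlapped, since replicate 12 reached 426 CPM in its Sox2 gate, and there too the Foxa2 value, 649 CPM, was higher. Apart from the cells described next, the 3 calls held without each library in turn.

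The other 3 members did not pass the test in the E7.5 Foxa2 gate. *Cldn7* was at 84.8 ± 39.9 CPM (n = 8) in the Foxa2 gate and 80.4 ± 25.9 (n = 10) in the Sox2 gate (log2 fold change 0.17, SE 0.22, edgeR adjusted p = 0.853). *Epcam* was at 138 ± 76 CPM against 148 ± 72 (log2 fold change 0.13, SE 0.15, edgeR adjusted p = 0.844), and *Esrp1* at 71.6 ± 29.6 against 56.0 ± 18.8 (log2 fold change 0.51, SE 0.24, edgeR adjusted p = 0.354). The gate was thus high in both keratins and 1 claudin, with the other claudin and *Epcam* near the Sox2 level.

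Foxa2 cells with and without a transcript of *Ttr*, *Apoa1* or *Spink1* differed in every member when the cells were pooled over libraries. Pooled *Krt8* was 639 CPM in the 17 cells with one and 134 CPM in the 31 without, and pooled *Krt18* was 630 and 102 CPM. Pooled *Cldn6* was 649 and 202 CPM, *Cldn7* 133 and 45.9, *Epcam* 205 and 90.9, and *Esrp1* 93.3 and 60.6. The cells with one held little of it, with a median of 0.875 and a maximum of 3.75 transcripts per 10000, under the 20 that set visceral endoderm apart, and both sets had similar depth (median 39734 and 33115 transcripts). At E6.75 a larger share of the Foxa2 gate, 48 of 82 cells (58.5%), held such a transcript, beside 16 of 29 cells of the Mesp1 gate (55.2%) and 25.6% of the Sox2 gate.

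Leaving these cells out of every class left 4 E7.5 libraries, in which the Foxa2 against Sox2 differences were 0.93 for *Krt8* (SE 0.50, edgeR adjusted p = 0.92), 0.87 for *Krt18* (SE 0.41, edgeR adjusted p = 0.825) and 0.33 for *Cldn6* (SE 0.22, edgeR adjusted p = 0.969) on the log2 scale. Over the 18 alternatives of each, adjusted p ran from 2.50e-42 to 0.92 for *Krt8*, from 9.49e-31 to 0.825 for *Krt18* and from 1.08e-09 to 0.969 for *Cldn6*. In the same 4 libraries with the cells kept, the differences were 2.42, 2.14 and 1.32 and all 3 were called. Marker levels moved with the gate as well. The summed definitive endoderm list (*Sox17*, *Cer1*, *Foxa1*, *Trh*, *Pyy*, *Hhex*, with *Pyy* at 0) ran from 361 to 1224 CPM in the Foxa2 gate and from 45.2 to 597 in the Sox2 gate, and the visceral endoderm list of 9 genes (with *Apoa4* at 0) from 10.9 to 150 and from 0 to 54.5. In visceral endoderm cells at E6.75 the latter list ran from 6340 to 8709 CPM. The part of these cells in the difference beyond the fits above was not tested.

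Foxa2 cells at E7.5 were also grouped by endoderm and axial markers, as a description. The 26 cells with *Sox17* or *Trh* and without *Noto* or *Shh* had pooled levels of 385 CPM for *Krt8*, 381 for *Krt18*, 446 for *Cldn6* and 106 for *Cldn7*. The 8 cells with *Noto* or *Shh*, genes of the node and notochord, and without *Sox17* or *Trh* had 723 CPM for *Krt8*, 442 for *Krt18* and 489 for *Cldn6*, but 13.4 for *Cldn7* (2 transcripts in all). The 11 cells with neither kind had 51.1 CPM for *Krt8*, 79.2 for *Krt18* and 102 for *Cldn6*. By pooled levels, high keratins and *Cldn6* were thus seen in both the endoderm-marked and the node-marked cells and were low in the cells with neither. The 8 node-marked cells came from 4 libraries, at a median depth of 18750.5 transcripts. These groups were not split further by *Ttr*, *Apoa1* or *Spink1*.

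At E6.75 no member passed between the Foxa2 and Sox2 gates. *Krt8* ran from 22.2 to 50.3 CPM with a median of 35.9 in the Foxa2 gate and from 14.1 to 31.7 with a median of 24.9 in the Sox2 gate, higher in 5 of 6 libraries (log2 fold change 0.53, SE 0.18, edgeR adjusted p = 0.336). *Epcam* was lower in 6 of 6 libraries and its ranges did not overlap, at 150 to 171 against 183 to 237 CPM, but the change was small (log2 fold change -0.30, SE 0.08, edgeR adjusted p = 0.161). *Cldn6* (log2 fold change -0.21), *Cldn7* (-0.25), *Krt18* (-0.28) and *Esrp1* (0.07) had edgeR adjusted p between 0.44 and 0.986. Of 8957 genes tested, 0.234% were called higher and 0.156% lower. These values depend on visceral endoderm being set apart: with it kept in the gates, *Krt8*, *Cldn6* and *Krt18* were called higher and *Epcam* lower.

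The change of the Foxa2 difference between stages was called for *Cldn6* (log2 difference 1.24, SE 0.16), *Krt8* (2.18, SE 0.29) and *Krt18* (2.43, SE 0.32), each with an edgeR adjusted p of 1.56e-05 over 14 libraries. For *Cldn7*, *Epcam* and *Esrp1* it was 0.38, 0.38 and 0.39, with edgeR adjusted p of 0.708, 0.419 and 0.693. Of 6987 genes tested, 0.415% were called higher and 0.2% lower. Without cells holding *Ttr*, *Apoa1* or *Spink1* the differences were 0.63 for *Cldn6*, 0.79 for *Krt8* and 1.49 for *Krt18* and none was called, and with visceral endoderm kept in the gates *Krt8* was at 0.61 and not called.

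**Figure D2:**
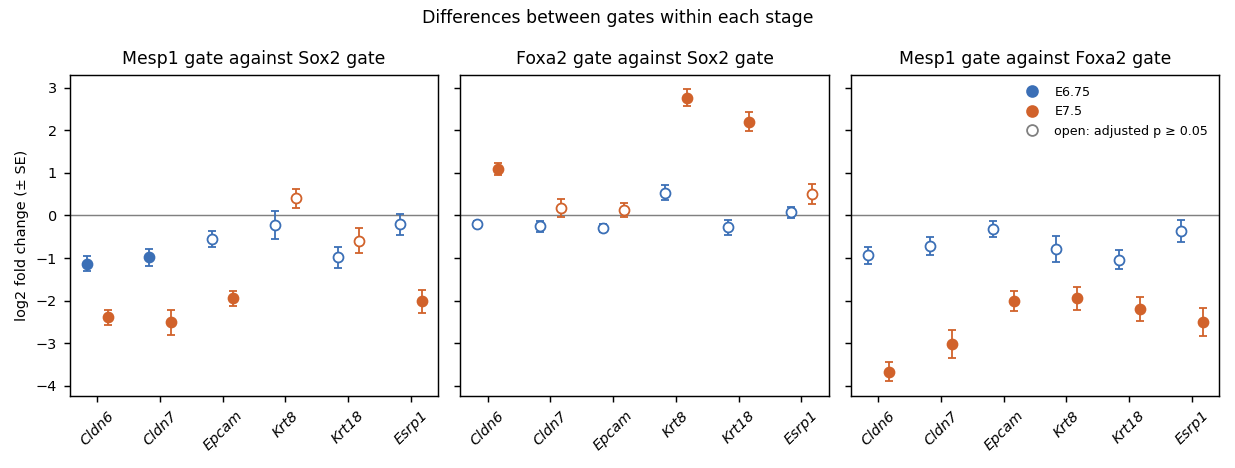
Log2 fold change between gates (vertical axis, ± SE from edgeR) for each member, at E6.75 (blue) and E7.5 (orange). Filled points have an adjusted p under 0.05. At E7.5 the 4 junction and splicing genes fall near -2 to -2.5 in the Mesp1 gate against the Sox2 gate, and the keratins rise above 2 in the Foxa2 gate against the Sox2 gate.

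Set directly against each other, the Mesp1 gate was below the Foxa2 gate at E7.5 for all 6 members, in 8 of 8 libraries each. The log2 fold changes were -3.67 for *Cldn6* (SE 0.22, edgeR adjusted p = 2.49e-11), -3.02 for *Cldn7* (SE 0.32), -2.01 for *Epcam* (SE 0.22), -1.94 for *Krt8* (SE 0.27), -2.19 for *Krt18* (SE 0.28) and -2.50 for *Esrp1* (SE 0.32), the largest adjusted p being 2.25e-05 for *Krt8*. The ranges did not overlap for *Cldn6*, *Cldn7* and *Epcam* and did for the other 3. Of 4446 genes tested, 3.28% were called lower and 1.89% higher. Without cells holding *Ttr*, *Apoa1* or *Spink1*, 4 members could be tested in 4 libraries, and *Cldn6* (-3.26, SE 0.30) and *Epcam* (-1.63, SE 0.30) stayed called while *Krt8* (-0.37, SE 0.44) and *Krt18* (-0.56, SE 0.30) were not.

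At E6.75 no member was called between the Mesp1 and Foxa2 gates, where 0.0521% of 7674 genes were lower and 0.339% higher. *Cldn6* was lower in 3 of 3 libraries, at 69.4 to 146 against 208 to 226 CPM (log2 fold change -0.94, SE 0.19, edgeR adjusted p = 0.0525). *Krt18* was lower in 3 of 3 libraries as well, at 28.1 to 51.5 against 63.3 to 101 CPM (log2 fold change -1.04, SE 0.22, edgeR adjusted p = 0.0655). *Cldn6* was called without replicate 2_13 (-1.19) or 2_9 (-1.01). With a gate of 2 transcripts *Cldn6* (-2.19), *Cldn7* (-1.95), *Epcam* (-1.31) and *Krt18* (-2.56) were called, and with visceral endoderm kept in the gates both claudins and both keratins were. Without cells holding *Ttr*, *Apoa1* or *Spink1*, *Cldn6* was at -0.34 (SE 0.32, edgeR adjusted p = 0.991) and *Krt18* at -0.10 (SE 0.37, edgeR adjusted p = 0.9997), against -1.01 and -1.09 in the same libraries with those cells kept. The change between stages was called for *Cldn6* (log2 difference -2.67, SE 0.34, edgeR adjusted p = 6.28e-05), *Cldn7* (-2.24, SE 0.43), *Epcam* (-1.63, SE 0.31) and *Esrp1* (-2.10, SE 0.46), where 0.328% of 7626 genes were called lower and 0.0656% higher. Without E6.75 replicate 2_13 only *Cldn6* stayed called, and *Epcam* and *Esrp1* also lost their calls without E6.75 replicate 2_9, and *Esrp1* without E7.5 replicate 1, 2 or 7. With a gate of 2 transcripts *Cldn6* alone was called, and *Cldn7* (-1.60), *Epcam* (-1.23) and *Esrp1* (-2.41) were not. Without the cells holding *Ttr*, *Apoa1* or *Spink1*, *Cldn6* alone was called as well (-2.86, SE 0.47), with *Cldn7* at -2.12 (SE 0.61), *Epcam* at -1.40 (SE 0.41) and *Esrp1* at -1.49 (SE 0.58). In the libraries left by that choice but with those cells kept, *Cldn6* (-3.13) and *Cldn7* (-2.57) were called, and *Epcam* (-1.31, SE 0.32, edgeR adjusted p = 0.101) and *Esrp1* (-2.02, SE 0.46, edgeR adjusted p = 0.0798) were not.

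Visceral endoderm, the outer epithelium, held the highest levels of both keratins and of both claudins at E6.75. *Krt8* was 16.5-fold, *Krt18* 6.42-fold, *Cldn6* 3.39-fold and *Cldn7* 2.15-fold above the embryonic cells of the same libraries, and each was higher in 6 of 6 libraries with no overlap. *Epcam* and *Esrp1* did not pass the test, and of 9141 genes tested 16% were called higher and 21% lower. The cells were chosen by *Ttr*, *Apoa1* and *Spink1*, which are no members.

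*Krt8* ran from 374 to 608 CPM with a median of 474 in visceral endoderm (489 ± 78, n = 6), against 21.3 to 34.1 with a median of 28.7 in the embryonic cells (27.6 ± 5.3), and its log2 fold change was 4.04 (SE 0.18, edgeR adjusted p = 1.12e-104). *Krt18* ran from 377 to 746 CPM with a median of 563, against 72.6 to 98.9 with a median of 75.6 (log2 fold change 2.68, SE 0.17, edgeR adjusted p = 4.29e-52). The ratio of *Krt8* to *Krt18* transcripts was 0.924 ± 0.234 (n = 6) in visceral endoderm and 0.279 ± 0.069 (n = 6) in the E6.75 Sox2 gate. *Cldn6* ran from 730 to 1148 CPM with a median of 994, against 202 to 350 with a median of 240 (log2 fold change 1.76, SE 0.16, edgeR adjusted p = 2.04e-27). *Cldn7* ran from 154 to 250 CPM with a median of 236, against 75.1 to 105 with a median of 96.6 (log2 fold change 1.10, SE 0.19, edgeR adjusted p = 3.72e-08).

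*Epcam* in visceral endoderm ran from 49.9 to 191.7 CPM, against 155 to 224 (log2 fold change -0.21, SE 0.19, edgeR adjusted p = 0.409), and *Esrp1* from 28.0 to 103, against 58.7 to 65.8 (log2 fold change 0.22, SE 0.24, edgeR adjusted p = 0.516). The 39 visceral endoderm cells were shallower than the embryonic cells, with medians of 23335 and 41725 transcripts. The median log2 fold change of all genes was -0.14, so that the members' values are read against a shifted whole. The 2 visceral endoderm cells kept at E7.5 had pooled levels of 1501 CPM for *Krt8*, 1962 for *Krt18* and 1674 for *Cldn6* and were not tested.

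Between the stages, all embryonic cells together showed lower *Cldn6*, *Cldn7*, *Epcam* and *Esrp1* and higher *Krt8* at E7.5. *Krt8* rose 4.78-fold, and the other 4 fell by 1.82-fold (*Cldn6*), 2.21-fold (*Cldn7*), 2.19-fold (*Epcam*) and 1.86-fold (*Esrp1*). Of 9976 genes tested, 19.6% were called higher and 20.1% lower, so that a call in either direction was common. The make-up of the cells changed with the stage: 29 of 504 embryonic cells were in the Mesp1 gate at E6.75 and 125 of 427 at E7.5. Within the Sox2 gate alone *Krt8* passed and the other 5 did not, where 11.9% of 8042 genes were called higher and 11.4% lower.

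*Krt8* over all embryonic cells was at 21.3 to 34.1 CPM in E6.75 libraries and at 43.0 to 309 in E7.5 libraries, with no overlap (27.6 ± 5.3, n = 6, against 137 ± 79, n = 11). Its log2 fold change was 2.26 (SE 0.31, edgeR adjusted p = 6.24e-06). *Esrp1* was the most even member at E6.75, between 58.7 and 65.8 CPM, and lay between 14.3 and 57.9 at E7.5, again with no overlap (log2 fold change -0.90, SE 0.15, edgeR adjusted p = 5.61e-05). *Cldn7* (log2 fold change -1.14, SE 0.26, edgeR adjusted p = 0.00136) and *Epcam* (-1.13, SE 0.24, edgeR adjusted p = 0.000889) went from 94.7 ± 10.8 to 46.1 ± 24.8 CPM and from 181 ± 25 to 89.1 ± 47.6. *Cldn6* went from 263 ± 64 to 154 ± 92 CPM, where replicate 12 alone was at 385 (log2 fold change -0.87, SE 0.28, edgeR adjusted p = 0.0157), and was not called with the E6.75 libraries of title prefix 2 alone. *Krt18* went from 80.9 ± 10.2 to 137 ± 80 CPM and missed the threshold (log2 fold change 0.70, SE 0.28, edgeR adjusted p = 0.0524). It was called without E6.75 replicate 1_11 or any of E7.5 replicates 2, 4, 6, 8, 9 and 10. The *Cldn7* call was lost after thinning each cell to 2000 transcripts.

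In the Sox2 gate *Krt8* went from 14.1 to 31.7 CPM at E6.75 (24.3 ± 6.8, n = 6) to 20.4 to 86.8 at E7.5 (45.6 ± 26.6, n = 10), with overlap (log2 fold change 1.09, SE 0.26, edgeR adjusted p = 0.00343). *Cldn6* (log2 fold change -0.40, SE 0.20), *Cldn7* (-0.43, SE 0.17) and *Epcam* (-0.46, SE 0.20) missed the threshold with edgeR adjusted p of 0.148, 0.071 and 0.0934. Without E7.5 replicate 12, *Cldn6* (-0.59) and *Epcam* (-0.63) were called, *Epcam* and *Cldn7* were called without replicate 11, and *Cldn7* without E6.75 replicate 1_10. *Esrp1* was at 61.9 ± 4.8 and 56.0 ± 18.8 CPM (log2 fold change -0.23, SE 0.16, edgeR adjusted p = 0.317), and *Krt18* at 87.4 ± 12.8 and 92.4 ± 60.2 (0.05, SE 0.26, edgeR adjusted p = 0.916). With extraembryonic ectoderm cells left out, *Cldn6* (-0.52) and *Cldn7* (-0.49) were called.

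The keratins were also high in cells that held neither *Foxa2* nor *Sox2* at E7.5, and these were split by *Hand1*, a transcription factor gene of lateral and extraembryonic mesoderm. *Krt8* and *Krt18* were each 6.72-fold higher in the cells with *Hand1* than in those without, in 8 of 9 libraries, where 1.13% of 3971 genes were called higher and 0.881% lower. The 109 *Hand1* cells had pooled levels of 30.8 CPM for *Cldn6*, 10.3 for *Cldn7*, 28.8 for *Epcam* and 13.5 for *Esrp1*, against 42.0, 16.6, 31.6 and 15.8 in the 97 cells without it. Library by library, in the 9 libraries with both kinds of cell, the order was not that of the pooled levels: *Cldn6* was higher with *Hand1* in 6 libraries (mean 59.3 against 45.6 CPM), *Cldn7* in 5 (20.7 against 15.7), *Epcam* in 7 (39.5 against 30.3) and *Esrp1* in 6 (17.7 against 16.7). Those 4 members were too low in these cells to enter the test, and no direction is read from either set of values.

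*Krt8* in the *Hand1* cells ran from 32.7 to 564 CPM with a median of 263 (266 ± 151, n = 10 libraries), and in the cells without *Hand1* from 0 to 61.8 with a median of 31.7 (31.9 ± 22.5, n = 10). The ranges overlapped through 1 library: replicate 9, with 7 cells of each kind, had 32.7 CPM with and 61.8 without *Hand1*. The log2 fold change was 2.75 (SE 0.28, edgeR adjusted p = 5.31e-07). *Krt18* ran from 22.9 to 450 CPM with a median of 262 (234 ± 149), and from 0 to 93.2 with a median of 28.6 (33.3 ± 28.2), and its log2 fold change was 2.75 (SE 0.36, edgeR adjusted p = 3.74e-05). Replicate 9 was again the only library in which it was lower. Both keratin calls held without each library in turn.

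The keratins were uneven among the *Hand1* cells themselves, by pooled levels. With *Bmp4*, a signal of extraembryonic mesoderm and other tissues, 75 cells had 403 CPM of *Krt8* and 326 of *Krt18*, and without it 34 cells had 43.2 and 52.9, beside 40.7 and 27.8 in the cells without *Hand1*. Without *Mesp1*, 58 cells had 646 CPM of *Krt8* and 532 of *Krt18*, and with it 51 cells had 129 and 105. The median depth was 34979 and 20516.5 transcripts with and without *Bmp4*, and 18723.5 and 40903 without and with *Mesp1*. High keratins in *Hand1* cells thus went with *Bmp4* and with the absence of *Mesp1*, as a description of cells pooled over libraries. Replicate 1 alone held 572 of the 1114 *Krt8* and 426 of the 915 *Krt18* transcripts of the *Hand1* cells. These splits were not compared library by library.

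Marker lists of several tissues were read in the *Hand1* cells and in the cells without *Hand1*. The lateral and extraembryonic mesoderm list, which *Hand1* belongs to, ran from 542 to 1805 CPM against 19.2 to 143, with *Foxf1* at 105 and 12.05 CPM in the pooled cells. The surface ectoderm and amnion list (*Tfap2a*, *Dlx5*, *Grhl3*, *Gata3*, *Krt5*, *Wnt6*, with *Krt5* at 0) ran from 3.27 to 194 CPM against 0 to 42.8, and the extraembryonic ectoderm list of 8 genes from 24.7 to 204 against 0 to 97.1, with its defining gene *Elf5* at 0 in both. Neither of these lists was particular to the *Hand1* cells. In the E7.5 Sox2 gate the surface ectoderm and amnion list ran from 7.75 to 95.4 CPM and the extraembryonic ectoderm list from 15.5 to 399. In the E7.5 Foxa2 gate they ran from 0 to 91.6 and from 0 to 102 CPM. The 59 *Hand1* cells without any surface ectoderm or amnion transcript had 242 CPM of *Krt8* and 208 of *Krt18*, and the 50 with one had 395 and 317. With such cells left out of both sides, 7 libraries gave a log2 difference of 2.53 for *Krt8* (SE 0.29, edgeR adjusted p = 1.10e-05), and *Krt18* no longer passed the filter on low counts. The 46 *Hand1* cells without any extraembryonic ectoderm list transcript had 141 and 120 CPM. Over the 17 alternatives the adjusted p of *Krt8* ran from 3.92e-35 to 0.000112.

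**Figure D3:**
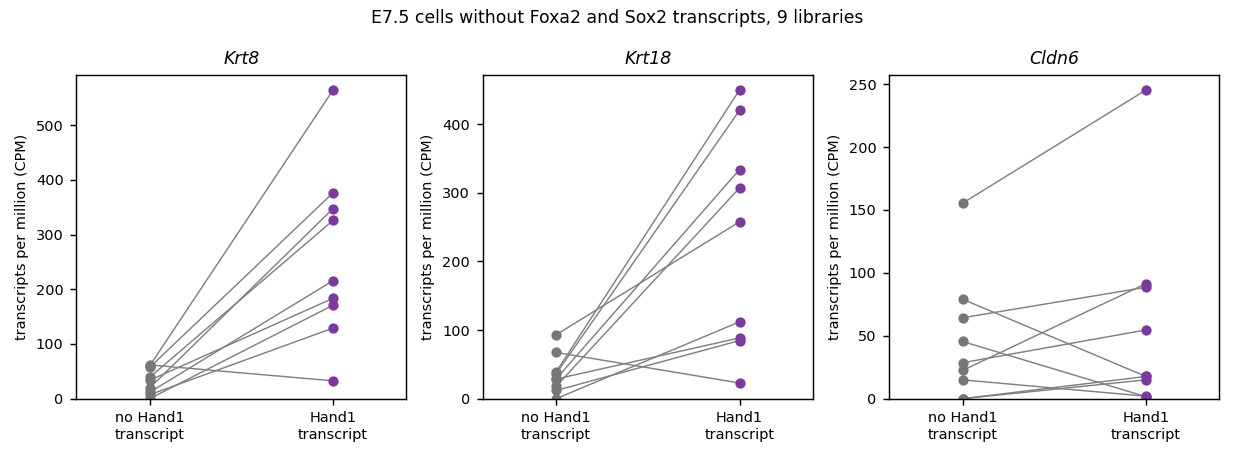
Krt8, Krt18 and Cldn6 in CPM (vertical axes from 0) at E7.5 in cells without Foxa2 and Sox2 transcripts, without Hand1 (grey) and with it (purple). Each line joins the sums of 1 of 9 libraries. The keratins are higher with Hand1 in 8 of 9 libraries, and Cldn6 in 6 of 9.

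Within single cells the members fell into patterns that the sums do not show. At E6.75, 333 of 504 embryonic cells (66.1%) held all of *Cldn6*, *Cldn7*, *Epcam* and *Esrp1*, and 11 (2.18%) held none of them. At E7.5 the counts were 104 of 427 (24.4%) and 88 (20.6%), at a lower median depth of 31173 against 41725 transcripts, to which such counts of detected genes are sensitive. Both keratins were detected in 47.2% of cells at E6.75 and 41.2% at E7.5. Cells with neither keratin numbered 85 of 504 and 127 of 427, and the share with *Krt8* after thinning every cell to 2000 transcripts was 3.97% and 14.3%. The 90th percentile of summed *Krt8* and *Krt18* was 2.29 transcripts per 10000 at E6.75 and 11.1 at E7.5.

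Cells with both keratins and none of the 4 junction and splicing genes numbered 0 of 504 at E6.75 and 36 of 427 at E7.5, and 29 of the 36 were among the 109 *Hand1* cells. Over cells, the Spearman correlation of *Krt8* with *Krt18* (transcripts per 10000) was 0.208 in the 504 embryonic cells of E6.75, 0.622 in the 39 visceral endoderm cells, 0.588 in the 427 cells of E7.5 and 0.827 in the 109 *Hand1* cells. The correlation of the summed keratins with the summed 4 other members was 0.743 in the 48 Foxa2-gate cells of E7.5 and -0.247 in the *Hand1* cells. It was -0.256 in the 125 Mesp1-gate cells of E7.5, 0.086 in the 129 Sox2-gate cells and 0.054 in all 427 cells. The *Hand1* cells and the Mesp1 gate shared 51 cells. These are descriptions over cells that share libraries and differ in depth. High keratins thus went with high junction genes in the Foxa2 gate and, less closely, with low ones in the *Hand1* cells and the Mesp1 gate. The ratio of *Krt8* to *Krt18* transcripts over all embryonic cells was 0.345 ± 0.077 at E6.75 (n = 6) and 1.05 ± 0.34 at E7.5 (n = 11), with ranges of 0.244 to 0.451 and 0.588 to 1.76 that did not overlap.

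Shares of cells with a transcript depended on depth, and were compared after each cell was thinned to 2000 transcripts. *Cldn6* was then found in 41.9% of E6.75 Sox2 cells and 59.0% of visceral endoderm cells (96.3% and 100% unthinned), and in 32.6% of E7.5 Sox2 cells, 9.6% of Mesp1 cells and 47.9% of Foxa2 cells (81.4%, 52.0% and 85.4% unthinned). *Krt8* was found in 4.81% of E6.75 Sox2 cells and 43.6% of visceral endoderm cells (59.3% and 94.9% unthinned). At E7.5 it was found in 33.9% of *Hand1* cells, 25.0% of Foxa2 cells and 3.09% of cells without *Hand1*, *Foxa2* and *Sox2* (69.7%, 70.8% and 37.1% unthinned). The last class was set by the absence of those 3 transcripts, at a median depth of 20722 against 28469 for the *Hand1* cells. No mesoderm marker was asked of it.

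**Figure D4:**
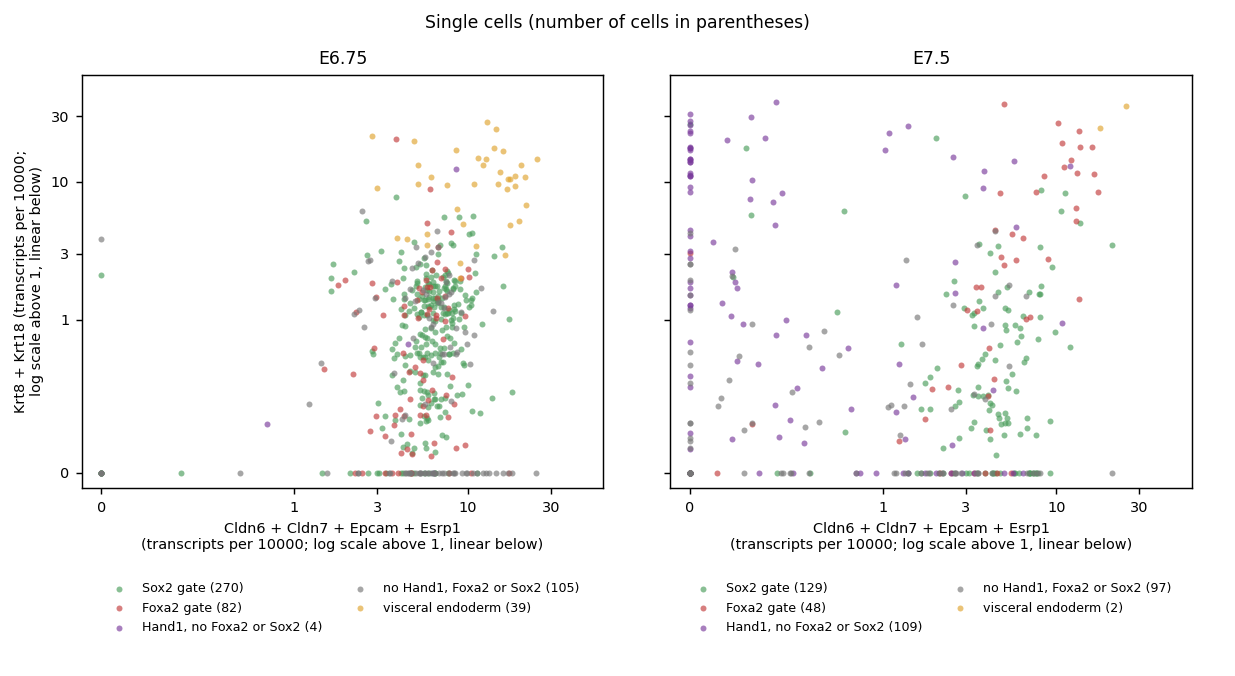
Single cells at E6.75 (left) and E7.5 (right), with the sum of Cldn6, Cldn7, Epcam and Esrp1 on the horizontal axis and the sum of Krt8 and Krt18 on the vertical axis, in transcripts per 10000 (log scale above 1, linear below). At E7.5 the purple Hand1 cells with high keratins lie at or near 0 on the horizontal axis, and the red Foxa2 cells with high keratins lie to the right.

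Over the 44 sums of a library and a gate (Sox2, Mesp1 and Foxa2 at both stages), the members formed a junction set and a keratin pair. Pearson's r of log2(CPM + 10) was 0.923 for *Cldn7* with *Epcam*, 0.853 for *Cldn7* with *Esrp1*, 0.813 for *Cldn6* with *Epcam* and 0.774 for *Krt8* with *Krt18*. It was 0.03 for *Krt8* with *Cldn7* and -0.02 for *Krt8* with *Epcam*. *Krt18* stood between, at 0.557 with *Cldn6* and 0.434 with *Epcam*. The sums share libraries, stages and depth, so these values describe the pattern only.

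Likeness was also read over the genes of at least 20 CPM on average, 6507 with the members included. Outside the members, *Cdh1*, which encodes the adherens junction protein E-cadherin, was among the 5 most alike for *Cldn6* (r = 0.855), *Cldn7* (0.836), *Epcam* (0.836) and *Esrp1* (0.815). The other genes most like *Cldn6* were *Grb7*, *Cmtm8*, *Eras* and *Crip2*, and those most like *Cldn7* were *Grb7* (r = 0.853), *Camsap3*, *Lrrc8d* and *Tpd52*. *Epcam* was most like *Otx2* (r = 0.858), an anterior epiblast and neural transcription factor gene, followed by *Cbx7*, *Camsap3*, *Cdh1* and *Bex1*. *Esrp1* was followed by *Bex1*, *Ezr*, *Tpd52* and *Bex4* after *Cdh1*. The keratins had other neighbours: *Krt8* was most like *Cer1* (r = 0.836), an antagonist gene of the anterior endoderm, then *Slc16a1*, *Flrt3*, *Dgkk* and *App*, and *Krt18* was most like *Slc16a1* (r = 0.720), then *Fam213a*, *Slc2a3*, *Itm2b* and *Lrpap1*.

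Other genes of the epithelial programme were read from 5 lists, and the counts below are of list members tested in each comparison. In the E7.5 Mesp1 gate against the Sox2 gate, 6 of 7 tested genes of the epithelial membrane and trafficking list were lower, led by *Cdh1* (log2 fold change -1.82), *Rab25* (-1.77), *Ezr* (-1.71) and *Spint2* (-1.40), and the list's median was -1.40 against -0.0044 for all genes. In this comparison 5.45% of all genes were called lower and 4.2% higher. Of 7 tested tight junction genes, 4 were lower, among them *F11r* (-1.21), *Cxadr* (-0.79) and *Tjp1* (-0.71), and 1 was higher (*Amotl2* 0.50). Among keratin and desmosome genes 1 of 3 was lower, the plakophilin gene *Pkp2* (-1.64). Of 8 tested mesenchymal genes, 7 were higher, among them *Twist1* (3.58), *Fn1* (3.26), *Pdgfra* (3.23) and *Cdh2* (1.98), with a median of 1.97. *Cldn6*, *Cldn7*, *Epcam* and *Esrp1* had log2 fold changes of -1.95 to -2.51 in the same comparison, and that of *Epcam* (-1.95, SE 0.18) lay within its error of *Cdh1* (SE 0.14).

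At E6.75 the same comparison called 4 of 5 tested mesenchymal genes higher, *Snai1* (log2 fold change 3.72), *Fn1* (2.87), *Cdh2* (2.54) and *Twist1* (2.53), while none of 13 tight junction and 13 membrane genes tested was called lower or higher. Of all genes tested in it, 0.857% were called higher and 0.298% lower. The desmoplakin gene *Dsp* was higher there (2.34). The Foxa2 gate against the Sox2 gate gave no call in any of the 5 lists at either stage, and the medians at E7.5 were 0.07 for the 6 tight junction genes, -0.01 for the 6 membrane genes and 0.41 for the 2 keratin and desmosome genes tested. Calls in either direction were few among all genes as well, 0.391% at E6.75 and 2.52% at E7.5. Against the Foxa2 gate at E7.5, 2 of 7 tight junction genes were lower in the Mesp1 gate, among them *F11r* (-1.30), as were *Cdh1* (-1.99), *Spint2* (-1.65) and *Ezr* (-1.32) of 6 membrane genes and *Dsg2* (-1.19) of 2 desmosome genes, while 5 of 7 mesenchymal genes were higher. Over all genes 3.28% were called lower there and 1.89% higher. For the change between stages of the Mesp1 against Sox2 difference, 0.535% of 7662 genes were called lower and 0.104% higher. *Cdh1* (-1.28) and *Ezr* (-1.18) were lower there, the 2 calls among 10 membrane genes. Of 9 mesenchymal genes, 3 were lower as well, among them *Pdgfra* (-2.14) and *Snai1* (-2.12), and 1 was higher. Of 3 regulator genes 1 was lower, and no tight junction or keratin and desmosome gene was called.

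In visceral endoderm, where 16% of all genes were called higher and 21% lower, all 7 tested keratin and desmosome genes were higher, led by *Krt19* (log2 fold change 4.14), *Dsp* (3.42), *Dsc2* (3.17) and *Krt7* (2.95), with a list median of 2.95. So were 4 of 6 epithelial regulator genes, among them *Rbm47* (2.96), *Elf3* (2.01) and *Ovol2* (1.73), and 6 of 14 tight junction genes, among them *Cgn* (2.65), *Crb3* (1.04), *Inadl* (0.94) and *F11r* (0.84). Of 13 membrane genes 5 were higher, among them *Prss8* (1.98), *Cdh3* (1.75) and *Ezr* (1.30), and *Rab25* was lower (-1.63). *Cdh2*, on the mesenchymal list, was higher as well (2.45), with *Snai1* (-3.23) and *Vim* (-1.12) lower. The *Hand1* cells at E7.5 had no tested regulator gene and 1 tested desmosome gene that was not called. Of 4 tested membrane genes, *Cdh1* (-1.29) and *Prom1* (-1.15) were lower, where 0.881% of all genes were called lower and 1.13% higher.

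Over all embryonic cells between stages, where 20.1% of all genes were called lower and 19.6% higher, 9 of 13 membrane genes were lower, led by *Mal2* (log2 fold change -2.11), *Lad1* (-0.97), *Ezr* (-0.84) and *Cdh1* (-0.83), and 8 of 9 mesenchymal genes were higher, led by *Pdgfra* (3.40), *Zeb2* (3.18), *Twist1* (2.90) and *Fn1* (2.65). Tight junction genes split, with 5 of 13 lower, among them *Crb3* (-1.39), *Marveld3* (-1.23) and *Marveld2* (-0.82), and 2 of 13 higher (*Cxadr* 0.49 and *Cldn12* 0.47). Beside *Krt8*, the genes *Dsp* (1.76) and *Krt19* (1.505) were higher among 7 keratin and desmosome genes, and both of these counts of higher genes are near the share over all genes. Among 8 regulators *Tfap2a* (1.63), *Klf5* (1.36) and *Klf4* (1.02) were higher, and *Grhl2* (-1.12) and *Rbm47* (-0.95) lower. Within the Sox2 gate, where 11.9% of all genes were called higher and 11.4% lower, all 7 tested mesenchymal genes were higher, led by *Zeb2* (3.85) and *Pdgfra* (3.73), while 1 membrane gene was lower (*Lad1* -0.88) and 1 higher (*Prom1* 0.62) of 10 tested. In that gate *Dsp* (1.59) was higher, the 1 call among 4 tested keratin and desmosome genes. *Klf5* (1.28) was higher as well, the 1 call among 3 tested regulators.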

How the data were processed

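Single-cell CEL-Seq2 libraries of wild-type mouse embryos were read from the transcript tables that the authors deposited, 1 per library. Per the submitters' processing notes, bcl2fastq 2.17.1.14 and BWA 0.6.2-r126 were among the tools; the counter, genome build, annotation and strand setting are not given in the sources used here. The deposited values are expected counts: each equals ln(1 - k/4096) times 4096, with the sign turned, for a whole number k of observed molecular identifiers, out of 4096 possible, so that the authors had corrected for repeated identifiers. They were rounded to whole numbers before tests.

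Each table held 192 barcode columns, and the 96 that held the transcripts were used. Cells with at least 2000 nuclear transcripts were kept, and doublets were not searched for. Transcripts were summed per library and class, for classes of at least 3 cells (10 for all embryonic cells). The library was a block in tests between gates. Tests used edgeR 4.0.16 (TMM, filterByExpr, quasi-likelihood) in R 4.3.3, with DESeq2 1.42.0 as an alternative, an adjusted p under 0.05 as the threshold, and were tested on simulated data. Alternatives also covered the filter, thinning to 2000 transcripts, uncorrected identifiers, a gate of 2 transcripts, the visceral endoderm limits, the block and each library left out. Alternatives chosen after seeing the data left out cells with any *Ttr*, *Apoa1* or *Spink1* transcript (and, for comparison, kept them in the libraries so left), with surface ectoderm or amnion markers, or with extraembryonic ectoderm markers, asked that gates lack *Sox2*, or asked for 2 *Hand1* transcripts. No 2 libraries of a stage agreed within sampling noise (chi-square per degree of freedom at least 3.46 at E6.75 and 2.11 at E7.5).

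The members and lists were chosen with earlier results of these data known. Named genes were the 6 members, from each list at most 4 called genes with the largest change plus at most 2 against the list's main direction, and the 5 genes most alike to each member. Some list genes that met this rule are counted but not reported here by name. Lists held 19 tight junction, 15 keratin and desmosome (14 in the tables), 14 regulator, 16 membrane and 12 mesenchymal genes. Coordinates are from GENCODE vM21 and promoter sequences from RefSeq (GRCm38.p6, 5 of 6 members matched).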

Additional observations from a re-analysis of the deposited data

Results flagged for a closer look

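Single libraries stood far from the others of their class in 9 of 60 groups of member levels, where chance alone gives about 1 in 20. Of these, 5 were in E7.5 replicate 12: *Cldn6* at 245.361 CPM in *Hand1* cells (1.57 to 91.4 in the others, 5 cells) and 155.376 CPM in cells without *Hand1* (0 to 79.1, 6 cells), *Cldn7* at 92.0104 CPM in *Hand1* cells (0 to 21.0), *Epcam* at 316.651 CPM in the Foxa2 gate (72.4 to 145, 5 cells), and *Krt18* at 231.801 CPM in the Sox2 gate (31.8 to 134, 9 cells). In E6.75 replicate 2_12, *Epcam* was at 236.705 CPM in the Sox2 gate (183 to 190, 54 cells) and 49.9326 CPM in visceral endoderm (142 to 191.7, 3 cells), and *Krt8* at 103.827 CPM in the cells with none of the 3 gate genes (21.0 to 37.1, 16 cells). In E7.5 replicate 1, *Krt8* was at 861.442 CPM in the cells with none of the 3 gate genes (0 to 402, 21 cells).

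A change between the stages in the difference between gates was called, by the test of that change itself, for 10 values on the log2 scale. For Mesp1 against Sox2 these were *Cldn6* (-1.2373), *Epcam* (-1.3759) and *Esrp1* (-1.8111), where 0.535% of all genes tested were called lower and 0.104% higher. None of these was called with DESeq2 or without E6.75 replicate 2_13 or 2_9. For Foxa2 against Sox2 they were *Cldn6* (1.2449), *Krt8* (2.1752) and *Krt18* (2.4271), where 0.415% were called higher and 0.2% lower. None of these was called without the cells holding *Ttr*, *Apoa1* or *Spink1*. For Mesp1 against Foxa2 they were *Cldn6* (-2.6676), *Cldn7* (-2.238), *Epcam* (-1.6326) and *Esrp1* (-2.0954), where 0.328% were called lower and 0.0656% higher. Only *Cldn6* stayed called without E6.75 replicate 2_13 or with a gate of 2 transcripts. The 3 tests share the sums of their gates.

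The barcode columns not used for cells held 120 transcripts of the 6 members, or 0.443% of the 26954 in the columns used plus these.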

How the results depend on the processing

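Over 1326 member values under alternatives, 1199 kept their direction and side of the threshold, 51 lost a call, 51 gained one, 23 moved without a call and 2 reversed. The reversals came with visceral endoderm kept in the gates: E6.75 Foxa2 against Sox2 was then 0.31511 for *Cldn6* (edgeR adjusted p = 0.0147) and 0.76448 for *Krt18* (0.0153). No paired analysis was possible because libraries of the 2 stages share no replicate numbers, and the gates of a library were blocked by library in the main fit.

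Counts below are genes called, with members called after a slash, in the order of the comparisons named. Thinned to 2000 transcripts per cell, all cells between stages gave 647/3, the Sox2 gate 194/0, visceral endoderm 194/2, E6.75 Mesp1–Sox2, Foxa2–Sox2 and Mesp1–Foxa2 7, 3 and 1, the same at E7.5 6, 5 and 4, their changes with stage 1, 3 and 2, and the *Hand1* cells 2, with no member testable in most of these. Without the low-count filter, 4 members were called in the Sox2 gate between stages, E6.75 gave 314/4, 135 and 135/2, E7.5 979, 356 and 709, the changes 98, 118 and 71, and the *Hand1* cells 263. With E6.75 libraries of prefix 2 alone, the Sox2 gate between stages had 2 members and E6.75 Foxa2–Sox2 67 genes. With extraembryonic ectoderm cells left out these were 3 members and 57 genes, and E6.75 Mesp1–Foxa2 was 48/1. DESeq2 gave 63/1, 17 and 16 at E6.75, 62 for E7.5 Foxa2–Sox2, 21/0 for the change of Mesp1–Sox2 and 16 for that of Mesp1–Foxa2. A gate of 2 transcripts gave 832/4, 77/1 and 162/4 at E6.75, 48 for E7.5 Foxa2–Sox2, 1 member for the change of Mesp1–Sox2 and 14/1 for that of Mesp1–Foxa2. Visceral endoderm kept in gave 499/4 and 179/4 for E6.75 Foxa2–Sox2 and Mesp1–Foxa2, and a limit of 50 for it gave 2028 genes. No library block gave 10, 13, 47 and 35 for E6.75 Foxa2–Sox2, E6.75 Mesp1–Foxa2, E7.5 Foxa2–Sox2 and *Hand1*. Uncorrected identifiers gave 1 member for E6.75 Mesp1–Foxa2. Without *Ttr*, *Apoa1* or *Spink1* cells, E6.75 Mesp1–Foxa2 gave 7, E7.5 Foxa2–Sox2 17/0, E7.5 Mesp1–Foxa2 113/2, and the changes of the last 2 pairs 4/0 and 3/1. In the libraries so left, with the cells kept, E6.75 Mesp1–Foxa2 gave 84/1 and the change of Mesp1–Foxa2 2 members. Gates without *Sox2* gave 2 members of 3 tested for E7.5 Mesp1–Sox2, and *Hand1* without surface ectoderm or amnion cells 24/1. The causes were not tested.

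Leaving out 1 library at a time gave 3536 to 4028 genes and 5 to 6 members between stages over all cells, and 1624 to 1943 and 1 to 3 in the Sox2 gate. For Mesp1–Sox2, Foxa2–Sox2 and Mesp1–Foxa2 it gave 27 to 262 and 0 to 4, 13 to 65 and 0 to 0, and 43 to 84 and 0 to 1 at E6.75. At E7.5 it gave 413 to 530 and 4 to 4, 51 to 144 and 3 to 3, and 142 to 285 and 4 to 6, and for the changes 20 to 52 and 0 to 4, 28 to 69 and 3 to 3, and 15 to 35 and 1 to 4. It gave 2557 to 3206 and 4 to 4 for visceral endoderm, and 31 to 123 and 2 to 2 for *Hand1* cells. The gates without *Sox2* were not run for the E6.75 comparisons and the changes, which had too few libraries.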

Other observations

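E6.75 Foxa2 cells without *Ttr*, *Apoa1* and *Spink1* (34 of 82) had pooled levels of 29.5 CPM for *Krt8*, 52.8 for *Krt18*, 218 for *Cldn6* and 85.9 for *Cldn7*. In the E7.5 Foxa2 cells without them (31 of 48) the levels were 134, 102, 202 and 45.9 CPM.

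The 3 E7.5 Foxa2 cells that held markers of both endoderm and node had 272 CPM of *Krt8*, 232 of *Krt18* and 496 of *Cldn6*. The 36 *Hand1* cells without a blood or endothelium marker had 339 CPM of *Krt8* and 341 of *Krt18*.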
